A study of Rattus norvegicus with 110 samples.

Results

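Among the genes of the rat liver, 200 were chosen by their counts as transcripts whose mean level more than doubled at the high dose of carbon tetrachloride (CCl4) while staying near the vehicle mean at the low dose. CPM, the count scaled to a common library total, were averaged over all vehicle, all low-dose and all high-dose livers. A gene was kept with a vehicle mean of at least 5 CPM, an absolute log2(low/vehicle) under 0.3 and a log2(high/vehicle) over 1, and the 200 genes with the largest log2(high/vehicle) were taken. Of 31998 genes in the table, 8828 met the vehicle minimum, 1195 of these exceeded 1 at the high dose, 408 met all 3 thresholds and 200 became members.

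CCl4 is a liver poison that cytochrome P450 enzymes of the hepatocyte turn into a reactive radical, and repeated doses kill hepatocytes around the central veins and drive regeneration and scarring. A liver that replaces lost cells has to make ribosomes, proteins and membranes, and polyamines, the small cations made by ornithine decarboxylase, are a classical requirement of growing liver tissue. N-glycosylation, the attachment of a sugar tree to new proteins in the endoplasmic reticulum, serves the secreted proteins that are the main product of hepatocytes.

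The livers came from 83 F2 male Sprague Dawley rats sampled on day 39 of treatment, with 3 oral doses per week at 0.5 mL/kg, given as olive oil alone (vehicle), CCl4 at 8% in olive oil (low dose) or CCl4 at 50% in olive oil (high dose). Cohort A had no treated ancestor, cohort B a treated F1 sire, cohort C a treated F0 grandsire and cohort D both. F0 and F1 males of the treated lines had received the 50% dose and were mated after recovery to untreated females, and F2 males of a litter share a sire and those of a line share F0 grandsires, whereas the F0 test counts each male as independent. Each of the 12 liver groups held 7 males except vehicle cohort C with 6, and kidneys of 27 vehicle males formed 4 further groups. A liver library held 31638559 to 51343589 counts and a kidney library 21961746 to 35055218. In bulk tissue, fewer cells of a type and less RNA per cell cannot be told apart. Hepatocyte markers could be checked for 3 of 19 genes, and Cyp1a2, Glul and Tat had vehicle means of 435, 279 and 732 CPM and high-dose means of 231, 342 and 1026 CPM.

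Gene symbols were available for 15 members only. They come from the study's own list of genes related to F0 treatment, drawn up on these same livers, so the members that can be named are not a random sample of the 200. The other 185 members are described by their values. None of the functional gene lists had an identifier for 80% of its genes, which makes counts over these lists void. Tp53inp1, from the p53 targets (4 of 24 with an identifier), and Ajuba, from the YAP targets (1 of 11), were the members found in any list.

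Promoters of 12 of the 15 named members were present in RefSeq (build GRCr8), each with 250 bases before and 50 after the start of transcription. They were searched on both strands for an E-box (CACGTG, bound by MYC among others), an AP-1 site (TGANTCA), an antioxidant response element (TGACNNNGC) and a TEAD site (GGAATG), which are sites of factors known from growth, stress and Hippo signalling. Only the 5 promoters with a match are shown, with the matched letters in capitals and the sequence ending at the start of transcription, or at the end of the match where it crosses the start (Odc1). They lie at chr6:46058415-46058669, plus strand (Odc1), chr3:137929929-137930178, plus strand (Nop56), chr9:87395506-87395755, minus strand (Farsb), chr11:48915048-48915297, plus strand (Get1) and chr15:32000043-32000292, minus strand (Ajuba).
Odc1: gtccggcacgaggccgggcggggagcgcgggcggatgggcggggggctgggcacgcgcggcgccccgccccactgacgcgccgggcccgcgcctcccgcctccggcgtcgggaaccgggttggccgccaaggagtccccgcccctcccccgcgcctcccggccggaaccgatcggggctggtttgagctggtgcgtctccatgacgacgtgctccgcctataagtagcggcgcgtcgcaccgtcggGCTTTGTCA
Nop56: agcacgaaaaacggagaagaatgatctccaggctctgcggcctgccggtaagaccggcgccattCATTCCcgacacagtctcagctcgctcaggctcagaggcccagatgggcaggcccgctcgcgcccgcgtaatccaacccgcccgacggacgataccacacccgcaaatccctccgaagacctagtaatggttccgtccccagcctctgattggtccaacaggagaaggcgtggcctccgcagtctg
Farsb: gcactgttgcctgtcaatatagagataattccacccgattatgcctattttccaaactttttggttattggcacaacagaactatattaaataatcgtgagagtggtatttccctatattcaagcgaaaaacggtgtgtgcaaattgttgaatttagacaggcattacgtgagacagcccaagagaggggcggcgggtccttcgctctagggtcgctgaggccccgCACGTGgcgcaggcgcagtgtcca
Get1: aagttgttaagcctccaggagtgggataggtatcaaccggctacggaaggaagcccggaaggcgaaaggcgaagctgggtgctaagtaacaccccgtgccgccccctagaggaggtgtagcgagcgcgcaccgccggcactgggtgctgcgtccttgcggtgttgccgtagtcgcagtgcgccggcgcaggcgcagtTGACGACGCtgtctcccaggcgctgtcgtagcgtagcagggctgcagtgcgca
Ajuba: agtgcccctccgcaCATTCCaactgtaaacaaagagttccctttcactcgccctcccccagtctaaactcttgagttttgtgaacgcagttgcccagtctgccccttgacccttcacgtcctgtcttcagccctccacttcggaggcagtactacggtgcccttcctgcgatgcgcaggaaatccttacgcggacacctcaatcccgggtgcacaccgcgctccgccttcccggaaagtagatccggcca
The antioxidant response element was found in 2 of 12 promoters, Odc1 and Get1, against 12.1% of all 33469 promoters, and the TEAD letters in 2 of 12, Nop56 and Ajuba, against 14.2%. The E-box was found in 1 of 12, Farsb, against 6.42%, and the AP-1 letters in 0 of 12 against 7.33%. With 12 promoters these counts lay near the share of all promoters and describe the sequence alone.

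The values that chose the members are given first, as a description with no test. Vehicle means of the 200 members ran from 5.04 to 589 CPM with a median of 28.5, low-dose means from 5.04 to 704 with a median of 33, and high-dose means from 11.9 to 1341 with a median of 78.6. The log2(high/vehicle) ran from 1.17 to 3.14 with a median of 1.33, which is a fold of 2.26 to 8.81 with a median of 2.52. Most members lay close to the end of the list, as 41 of 200 exceeded 1.5 and 5 exceeded 2. Over the genes with the vehicle minimum, 13.5% exceeded 1 at the high dose and the median log2(high/vehicle) was 0.46. The members therefore stood 0.87 above the median gene on the log2 scale.

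**Figure D1:**
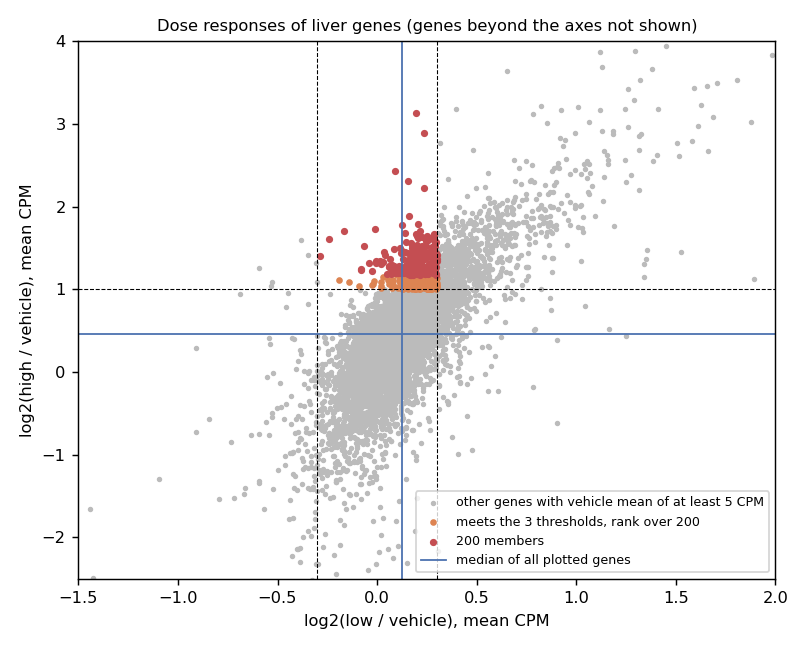
Each point is a liver gene with a vehicle mean of at least 5 CPM, with log2(low/vehicle) on the x axis and log2(high/vehicle) on the y axis, both from mean CPM; dashed lines are the thresholds, blue lines the medians of all plotted genes (0.12 and 0.46), red points the 200 members and orange points the genes that met the thresholds at a lower rank. The members sit against the upper edge of the low-dose band, where the cloud of genes continues without a gap.

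The low-dose band held the members unevenly. Of 200 members, 189 had a low-dose mean above the vehicle mean and 106 had a log2(low/vehicle) above 0.2, with a median of 0.20 against 0.12 over the genes with the vehicle minimum. Genes beyond the band were more numerous than members: 611 genes as high at the high dose were left out by the low-dose band alone, and 607 of these were above it. The name "rising only at the high dose" thus describes the threshold, and the members grade into genes that were also higher at the low dose. The 3 members nearest to the band had a log2(low/vehicle) of 0.2982 to 0.29996 and the 3 genes just beyond it 0.3002 to 0.3014. At the end of the ranking, ENSRNOG00000033843.3 was the last member with a log2(high/vehicle) of 1.174, and ENSRNOG00000023529.3 the first gene outside with 1.172. At the vehicle minimum, the 3 lowest members had 5.04 to 5.19 CPM and the 3 nearest genes outside 4.8 to 4.96 CPM.

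The size of the difference depended on the scale. CPM counts a transcript as a share of its library, and the median gene had a larger share at the high dose. With TMM scaling, which sets the typical gene to no change, the median log2(high/vehicle) of the members was 0.71 against -0.15 for the genes with the vehicle minimum, and only 16 of 200 members still met the 3 thresholds. With DESeq2 size factors 18 did. The distance between the members and the median gene was 0.87, 0.86 and 0.85 on the 3 scales, which follows from the choice of the members and from scalings that move all genes alike.

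The members were compared in single livers through the mean over members of log2(CPM + 1) minus the vehicle mean. Vehicle livers had values from -0.40 to 0.98 with a median of -0.04, low-dose livers from -0.31 to 0.81 with a median of 0.12, and high-dose livers from 0.25 to 2.00 with a median of 1.33. Of 28 high-dose livers, 24 lay above every vehicle liver and 25 above every low-dose liver. The share of all counts that came from the 200 members had a median of 1.12% in vehicle livers, 1.28% in low-dose livers and 3.07% in high-dose livers, with highest values of 3.60%, 2.75% and 6.71%.

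Single libraries lay far from the rest of their dose. The liver of vehicle cohort C replicate 3 had a value of 0.98 where the other 5 livers of its group lay between -0.12 and 0.16, and 107 of 200 members were more than 1 above their vehicle mean in it. It was the highest vehicle liver for 135 of 200 members, and 94 members were above the high-dose median in it. At the other end, high-dose cohort D replicate 3 had a value of 0.25, with the others of its group spread from 0.66 to 2.00, was the lowest high-dose liver for 137 members and lay within the range of the other vehicle livers for 165 members. In low-dose cohort D, replicate 5 had a value of 0.73 where the others lay between 0.04 and 0.19, and in low-dose cohort C replicate 7 had 0.81 where the others lay between -0.31 and 0.33. All labels were kept as given.

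**Figure D2:**
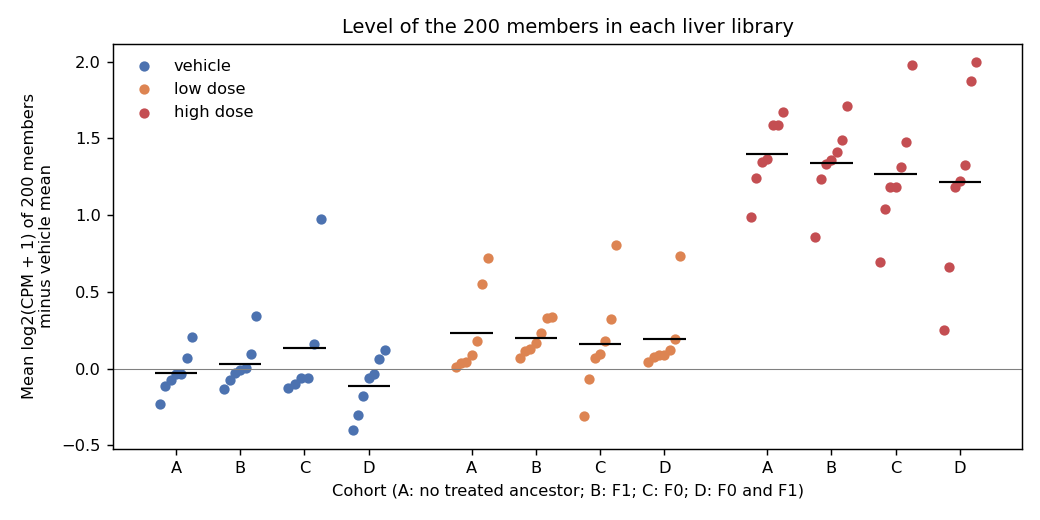
Each point is a liver library, grouped by dose and by cohort on the x axis, and the y axis is the mean of log2(CPM + 1) over the 200 members minus its vehicle mean; black lines are group means. The cohort C vehicle library at 0.98 lies among the high-dose libraries, and the cohort D high-dose library at 0.25 lies among the vehicle libraries.

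Vehicle and high-dose livers overlapped for most members. In 10 of 200 members every high-dose liver was above every vehicle liver, against 4.43% of the genes with the vehicle minimum, a share from which nothing is read here as the members were chosen by this contrast. The median member had 14 of 28 high-dose livers above its highest vehicle liver and 19 of 28 above its highest low-dose liver. Without the cohort C vehicle library and the cohort D high-dose library, 73 of 200 members did not overlap, against 9.23% of the genes with the vehicle minimum. Most members overlapped without them too, and nothing more is read from this share. The vehicle library also placed members inside the low-dose band: without it the median log2(low/vehicle) of the members was 0.28 in place of 0.20, 81 of the 200 fell outside the band and 117 still met the thresholds.

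The members with the largest values had no symbol. ENSRNOG00000019206.4 ranged from 14.7 to 56.8 CPM in vehicle livers with a median of 27.2, from 18.0 to 98.6 in low-dose livers with a median of 26.2, and from 16.9 to 608 in high-dose livers with a median of 232. ENSRNOG00000029668.4 ranged from 6.38 to 30.4 CPM with a median of 13.5 in vehicle livers, from 7.11 to 53 with a median of 14.2 in low-dose livers, and from 21.9 to 205 with a median of 96.2 in high-dose livers. In both genes 27 of 28 high-dose livers were above the highest vehicle liver, and log2(high/vehicle) was 3.14 and 2.89.

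The named members are ordered here by role, an order made after their values were seen and not tested as a theme. Odc1 encodes ornithine decarboxylase, the rate-limiting enzyme of polyamine synthesis, and Paox a polyamine oxidase that takes acetylated polyamines apart. Odc1 ranged from 47.4 to 97.8 CPM in vehicle livers (median 60.3), from 46.3 to 109 in low-dose livers (median 63.6) and from 62.1 to 297 in high-dose livers (median 131). Paox ranged from 13.3 to 22.9 CPM in vehicle livers (median 17.6), from 13.2 to 27.1 in low-dose livers (median 18.8) and from 20.5 to 67.7 in high-dose livers (median 48.8). For Paox 27 of 28 high-dose livers lay above the highest vehicle liver, and for Odc1 21 of 28. The log2(high/vehicle) was 1.24 for Odc1 and 1.47 for Paox, and their low-dose ratios of 0.07 and 0.12 were the smallest of the named members. The highest vehicle value of Odc1 came from cohort C replicate 3, and the next highest vehicle liver had 78.3 CPM.

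Genes of protein glycosylation and of the membranes of the secretory pathway came next. Alg12, a mannosyltransferase that builds the sugar precursor of N-glycans, ranged from 6.80 to 13.4 CPM in vehicle livers (median 9.76), from 8.33 to 19 in low-dose livers (median 11.1) and from 10.05 to 44.8 in high-dose livers (median 28.4). Of 28 high-dose livers, 27 lay above the highest vehicle liver for Alg12. Tmem165, a Golgi membrane protein whose loss disturbs glycosylation, ranged from 4.95 to 8.45 CPM in vehicle livers (median 6.73), from 6.27 to 11.4 in low-dose livers (median 7.95) and from 8.97 to 31 in high-dose livers (median 15.6). Get1, part of the receptor that inserts tail-anchored proteins into the endoplasmic reticulum, ranged from 4.23 to 10.8 CPM (median 6.65), from 5.92 to 14.5 (median 8.07) and from 8.39 to 25 (median 16.3). Vehicle and high-dose livers did not overlap for Tmem165, and 27 of 28 high-dose livers were above the highest vehicle liver for Get1. The log2(high/vehicle) was 1.52 for Alg12, 1.33 for Get1 and 1.27 for Tmem165.

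Nop56 and Farsb serve protein synthesis. Nop56, a core protein of the particles that methylate ribosomal RNA, ranged from 12.0 to 26.7 CPM in vehicle livers (median 18.6), from 13.4 to 45.7 in low-dose livers (median 20.5) and from 16.4 to 122 in high-dose livers (median 35.5). Farsb, the beta subunit of phenylalanyl-tRNA synthetase, ranged from 14.2 to 22.4 CPM (median 18.1), from 16.0 to 32.4 (median 19.96) and from 22.1 to 67.9 (median 43.6). High-dose livers differed widely for Nop56, with 20 of 28 above the highest vehicle liver but 10 of 28 above the highest low-dose liver, whereas 26 of 28 exceeded the highest vehicle liver for Farsb. The log2(high/vehicle) was 1.30 for Nop56 and 1.25 for Farsb. The 3 genes of the fixed list of tRNA synthetases that had an identifier were not members, with log2(high/vehicle) of 1.08 for Yars1, which met the thresholds at a lower rank, 0.44 for Cars and 0.39 for Mars1. Hars1, a tRNA synthetase that the list does not hold under this symbol, also met the thresholds at a lower rank, with 1.08.

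Xrcc5 and Tp53inp1 are known from the response to DNA damage. Xrcc5, which encodes the Ku80 subunit that binds broken DNA ends, ranged from 8.42 to 12.4 CPM in vehicle livers (median 10.5), from 9.36 to 16.0 in low-dose livers (median 11.8) and from 13.3 to 34.1 in high-dose livers (median 23.4), with no overlap of vehicle and high dose. Tp53inp1, a p53 target that promotes cell death and autophagy, ranged from 6.39 to 46.8 CPM (median 11.6), from 9.67 to 44.3 (median 19.6) and from 15.2 to 80.4 (median 34.3). It had the fewest high-dose livers beyond the vehicle range of the named members, with 9 of 28 high-dose livers above the highest vehicle liver. The log2(high/vehicle) was 1.21 for Xrcc5 and 1.31 for Tp53inp1. Of the other p53 targets with an identifier, Cdkn1a had 0.42, Plk3 1.41 at a vehicle mean of 3.29 CPM, under the minimum, and Ddb2 -0.50.

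The remaining named members have various roles. Ajuba, a LIM-domain protein of cell junctions that restrains Hippo signalling, ranged from 5.98 to 19.2 CPM in vehicle livers (median 11.5), from 8.22 to 24.5 in low-dose livers (median 12.0) and from 13.0 to 49.3 in high-dose livers (median 29.6). Vezt, which encodes the junction protein vezatin, ranged from 6.26 to 10.4 CPM (median 7.67), from 6.25 to 12.6 (median 8.98) and from 5.88 to 30.6 (median 17.5). The lowest Vezt value of all livers thus belonged to a high-dose male, cohort D replicate 3, although 26 of 28 high-dose livers exceeded the highest vehicle liver. Pdcl3, a phosducin-like helper of protein folding, ranged from 5.58 to 11.8 CPM (median 9.23), from 6.17 to 16.3 (median 10.5) and from 11.6 to 39.1 (median 19.7), with 27 of 28 high-dose livers above the vehicle range. Lysmd2, a LysM-domain protein, ranged from 3.13 to 8.57 CPM (median 5.61), from 3.54 to 11.4 (median 5.88) and from 6.85 to 20.9 (median 13.0), with 26 of 28 above. The identifier ENSRNOG00000056485.1 is listed under both LOC103694903 and Ppp2ca, the catalytic subunit of protein phosphatase 2A, so its counts may come from similar copies. It ranged from 28.5 to 40.0 CPM in vehicle livers (median 33.7), from 30.5 to 51.3 in low-dose livers (median 38.0) and from 36.7 to 126 in high-dose livers (median 74.0), with 26 of 28 above. The log2(high/vehicle) of these genes was 1.45 for Ajuba, 1.25 for Lysmd2, 1.22 for Pdcl3, 1.2 for LOC103694903/Ppp2ca and 1.19 for Vezt.

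**Figure D3:**
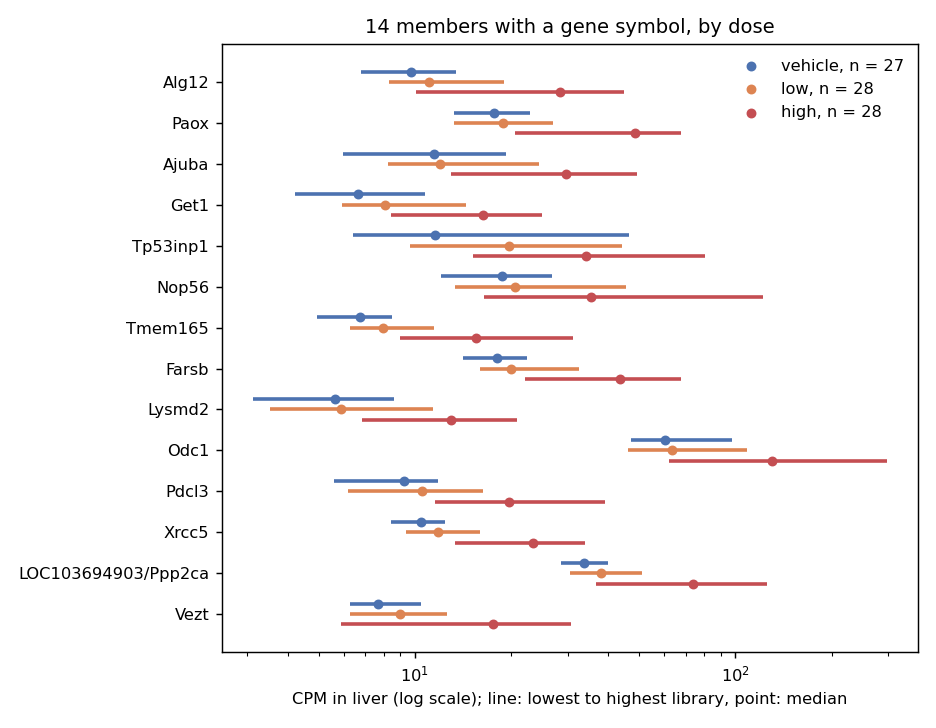
Lines run from the lowest to the highest liver library and points mark the median CPM (log scale) for vehicle (27), low-dose (28) and high-dose (28) males, for 14 members with a symbol. High-dose medians lie to the right of vehicle and low-dose medians, the low-dose median of Tp53inp1 (19.6 CPM) lies well above its vehicle median (11.6 CPM), with no overlap of vehicle and high dose for Tmem165 and Xrcc5.

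A further 22 named genes met the thresholds at ranks beyond 200, with log2(high/vehicle) from just over 1 to 1.16. Among them were Alg2 (1.03), another enzyme of the N-glycan precursor, and Tsr1 (1.12), Pes1 (1.06) and Nol9 (1.02), which serve ribosome assembly. Average transcript lengths of the members were nearly the same at the high dose, with log2(high/vehicle) of length between -0.10 and 0.04, so that per length all 200 members still exceeded 1. In vehicle livers the lengths ran from 59.5 bases (ENSRNOG00000049442.2) to 7142 bases (ENSRNOG00000002414.8). Named members ran from 725 (LOC103694903/Ppp2ca) to 2708 bases (Vezt). Many members without a symbol were shorter than any named member, so the named genes do not stand for them.

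Macrophage markers had higher CPM at the high dose in the same livers. On this scale the median gene with the vehicle minimum had a log2(high/vehicle) of 0.46. Cd163 had 0.59, Cd14 0.87, Adgre1 0.98, C1qb 1.03 and Ctss 1.24. For the 5 of 22 markers with an identifier the summed level was 135 to 264 CPM in vehicle livers (median 183), 148 to 397 in low-dose livers (median 229) and 218 to 596 in high-dose livers (median 335). Cd4, the only lymphocyte marker of 12 with an identifier, had means of 19.8, 32.0 and 68.0 CPM. The 2 of 9 sinusoidal endothelial markers with an identifier summed to medians of 92.9, 107 and 89.2 CPM at vehicle, low and high dose, and the 2 of 23 cholangiocyte and progenitor markers to 23.5, 24.6 and 25.01 CPM. The hepatocyte markers had CPM ratios of both signs, with a log2(high/vehicle) of -0.91 for Cyp1a2, 0.30 for Glul and 0.49 for Tat. Glul lay below the median gene at 0.46 and Tat close to it, so these signs depend on the scale. None of the neutrophil markers or of the stellate cell markers had an identifier. The part of other cell types in the level of the members was not tested.

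The ratios within a cohort are parts of the values that chose the members and are given as a description, with cohort C lowest at the high dose. The median log2(high/vehicle) within a cohort was 1.46 in cohort A, 1.33 in B, 1.07 in C and 1.53 in D, and the number of members over 1 was 197, 199, 133 and 192 of 200. In all 4 cohorts at once 124 members exceeded 1 and 199 exceeded 0.5. The low-dose ratios were less even, with medians of 0.31, 0.19, -0.04 and 0.36, and 22 of 200 members stayed within 0.3 in all 4 cohorts. Cohort C holds the vehicle library that stood apart. By necropsy date the median log2(high/vehicle) was 1.44, 1.09, 1.47 and 1.48 for the 4 dates, and the median log2(low/vehicle) 0.31, -0.13, 0.46 and 0.37. The second date, which includes the same vehicle library, decided the low-dose band: without it 65 of 200 members met the thresholds.

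**Figure D4:**
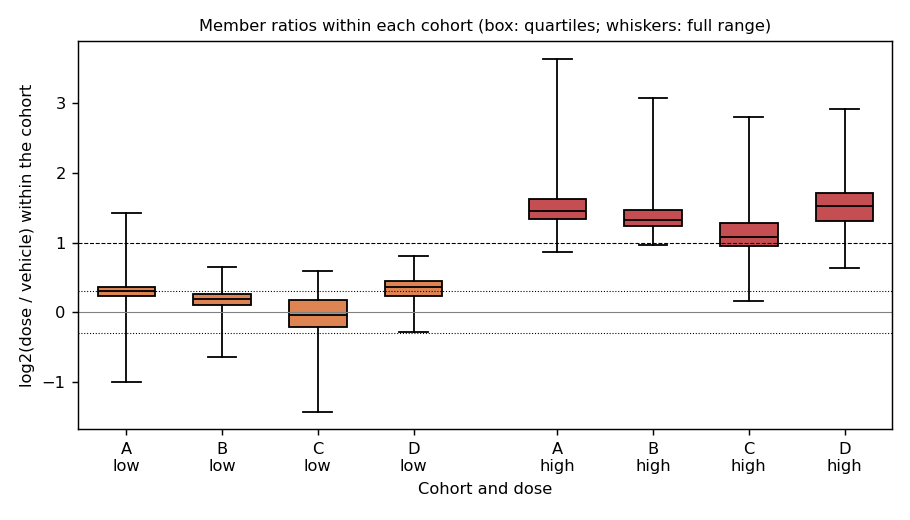
Boxes show the quartiles and whiskers the full range over the 200 members of log2(dose/vehicle) from mean CPM within each cohort, for the low dose (left) and the high dose (right); the dashed line is 1 and the dotted lines are the low-dose band. Medians at the high dose run from 1.07 in cohort C to 1.53 in cohort D, and at the low dose from -0.04 in cohort C to 0.36 in cohort D.

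Among high-dose males the members varied together. After removing the cohort means, the first principal component held 60.3% of the variance of the members over 28 high-dose livers, against 40.2% over all genes with the vehicle minimum. The correlation of a member with the mean of the others, across these 28 livers that share library and depth, had a median of 0.82, was over 0.5 for 166 members and under 0 for 5. Among named members it was 0.88 for Get1, 0.83 for Paox and 0.80 for Odc1, and lowest for Tp53inp1 (0.43) and Ajuba (0.35). Most named members lay below the median of all members, among them Tmem165 (0.65), Nop56 and Alg12 (0.63 each), Xrcc5 (0.57) and Farsb (0.49). The highest values, up to 0.99, belonged to members without a symbol. These correlations are descriptions and were not tested.

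Treatment of ancestors was not used to choose the members, and its effects were tested. The rule did average in the cohort C vehicle library that stood apart, from the line with a treated F0 grandsire and a control F1 sire. Without it 81 of the 200 members fell outside the low-dose band, so the choice can bias the members' ancestry effects. In a model of F0, F1 and F2 treatment over 83 livers, fitted with edgeR over all genes tested, 15 of 200 members were lower with a treated F0 grandsire and 0 higher at an adjusted p under 0.1. All genes tested gave 3.45% lower and 3.88% higher, and the genes with the vehicle minimum 6.05% lower and 6.21% higher. The counts of 15 and 0 members are read against these shares. At an unadjusted p under 0.05, 23 members were lower and 8 higher, 31 of 200 in all, against 18.9% of all genes tested. DESeq2 called 15 members lower and 3 higher, against 3.98% and 4.66% of all genes. The median F0 effect over members was 0.02 on the log2 scale, with 111 of 200 above 0, and without the cohort C vehicle library it was -0.03, with 60 of 200 above 0. Of the called members 14 had a symbol, and all 14 come from the study's F0 list made on these livers, so their direction is not independent evidence.

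LOC103694903/Ppp2ca had the smallest p. In vehicle livers it ranged from 31.7 to 40.0 CPM with control F0 grandsires (median 36.7, n = 14) and from 28.5 to 36.4 with treated ones (median 31.5, n = 13). At the high dose it ranged from 52.5 to 126 (median 90.0) and from 36.7 to 98.3 (median 70.0). The ranges overlapped at both doses, with lower medians in the treated line, and the effect was -0.26 ± 0.05 (SE) with an edgeR adjusted p of 0.000698. Lysmd2 fell by 0.33 ± 0.07 (SE) on the log2 scale, with an edgeR adjusted p of 0.000792, and Tmem165 fell by 0.19 ± 0.04 (SE), with an adjusted p of 0.00133. Tp53inp1 had the largest difference, with high-dose medians of 57.2 CPM with control and 28.6 CPM with treated F0 grandsires, and an effect of -0.56 ± 0.12 (SE) with an edgeR adjusted p of 0.0018. Odc1, at vehicle medians of 67.2 and 50.5 CPM, had an effect of -0.28 ± 0.06 (SE) with an edgeR adjusted p of 0.00246. Ajuba was the named member not called, at -0.22 ± 0.09 (SE) and an edgeR adjusted p of 0.135. The called member without a symbol, ENSRNOG00000001797.6, had an effect of -0.15 and an adjusted p of 0.096 and was called in 2 of 12 alternatives. In vehicle males alone edgeR called 1 member higher and 2 lower for F0, against 0.588% and 0.428% of all genes. In low-dose males alone 0 members were called against 0.195% of all genes, with 20 at an unadjusted p under 0.05 against 11.6% of all genes. In high-dose males alone 0 members were called against 0% of all genes, with 14 at an unadjusted p under 0.05 against 5.82% of all genes.

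**Figure D5:**
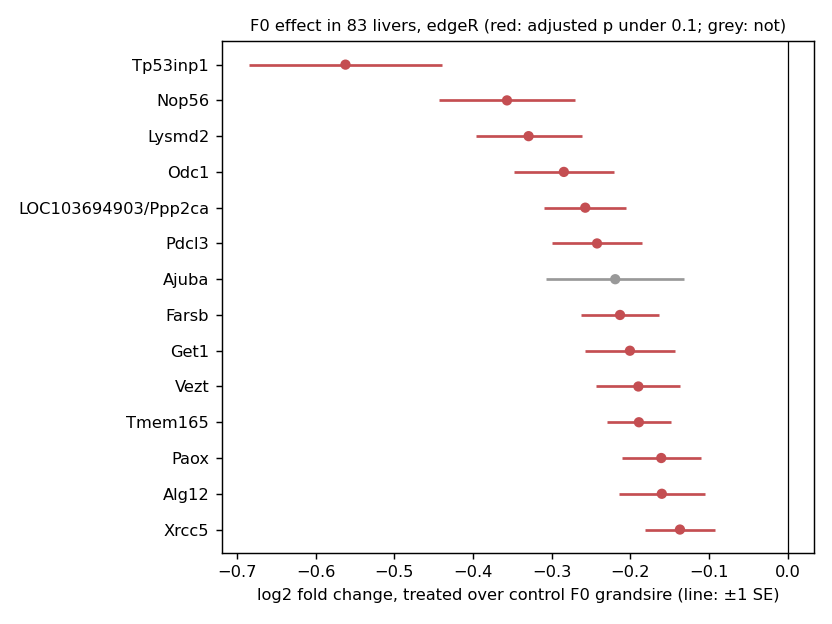
Points are log2 fold changes of treated over control F0 grandsires in 83 livers for 14 members with a symbol, from the edgeR model, and lines are ±1 SE; red marks an adjusted p under 0.1. All 14 lie below 0, from -0.56 for Tp53inp1 to -0.14 for Xrcc5, and these genes were named through the study's F0 list.

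F1 treatment called 0 members by edgeR (0.0474% of all genes tested were called in either direction), with 49 members lower and 2 higher at an unadjusted p under 0.05, against 10.3% of all genes in either direction. DESeq2 called 1 member, against 0.0947% of all genes. The median F1 effect over members was -0.12 against -0.02 over the genes with the vehicle minimum, with a median SE of 0.10. Without the cohort C vehicle library, which belongs to the line with a control F1 sire, 17 in place of 51 members had an unadjusted p under 0.05, near the 8.43% of all genes, and the median F1 effect over members was -0.07.

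A difference between lines of ancestry in the response to the high dose passed the edgeR test in 0 members. The interaction of F0 treatment with the high dose called 0 of 200 members by edgeR, against 0% of all genes tested, with a smallest adjusted p of 0.291. At an unadjusted p under 0.05 were 7 members against 5.89% of all genes, or 16 against 8.17% without the cohort C vehicle library. DESeq2 also called 0, against 0.00526% of all genes. The interaction of F1 treatment with the high dose called 0 of 200, against 0% of all genes, with 10 members at an unadjusted p under 0.05 against 10.5% of all genes. DESeq2 called 2 members, against 0.484% of all genes. The median F1 by high dose interaction over members was 0.17, with 146 of 200 above 0. Without the cohort C vehicle library it was -0.02, with 82 of 200 above 0, so its sign rested on a library that helped choose the members. The median SE of a member's interaction was 0.23 on the log2 scale.

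Kidney, whose libraries played no part in the choice, differed from liver in some members. In kidney 6 of the 37 members called lower had a median under 1 CPM, and 1 of these was at 0 in every kidney library. In 27 kidneys and 27 livers of vehicle males, edgeR with TMM called 18 of 200 members higher in kidney and 37 lower, at an adjusted p under 0.1 and a log2 fold change beyond 1. The genes with the vehicle minimum gave 8.48% higher and 22.8% lower, and all 19292 genes 27.3% higher and 19.7% lower, so the members lay near the background of genes expressed in liver. Organ and library preparation cannot be told apart. Odc1 ranged from 287 to 636 CPM in kidney (median 384), above all vehicle livers, and was higher by 1.69 ± 0.08 (SE) with an edgeR adjusted p of 1.21e-26. Tp53inp1 ranged from 4.82 to 20.1 CPM in kidney (median 10.7), against 6.39 to 46.8 CPM in vehicle livers (median 11.6), and Lysmd2 from 3.13 to 7.14 (median 5.28). Both were called lower after TMM scaling, with Tp53inp1 at -1.56 ± 0.16 (SE) with an edgeR adjusted p of 3.75e-13 and Lysmd2 at -1.03 ± 0.09 (SE) with an edgeR adjusted p of 4.86e-16. The direction depended on the scale for many members: on the CPM scale 153 of 200 members were higher in kidney, with a median log2 ratio of 0.42, whereas in the TMM fit 46 were, with a median of -0.53, and the genes with the vehicle minimum had medians of 0.68 and -0.28. The sign differed for 107 members and in 0 of the 18 and 0 of the 37 called.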

How the data were processed

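Liver mRNA of 83 F2 males and kidney mRNA of 27 vehicle males was sequenced from stranded libraries as read pairs. The authors estimated transcript abundance with Salmon 0.14.0 on an Ensembl rat transcript index, with tximport giving gene level values. The deposited counts are these estimates as whole numbers without normalization. A second deposited table gives the mean transcript length of a gene in each sample, in bases. In CPM the value of a gene also moves with the abundant transcripts of its library. Promoter coordinates are those of RefSeq (GRCr8).

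Groups, cohorts, doses, necropsy dates (4) and litters (34) were taken from the sample labels and the study's pedigree. The members and gene lists were chosen with earlier results of these data known. CPM was the count over the library total, with a pseudocount of 1 on the log2 scale. Python 3.11.15, R 4.3.3, edgeR 4.0.16 and DESeq2 1.42.0 were used. Fits took every gene that summed to more than 10 counts within 1 or more groups, used edgeR's quasi-likelihood test after TMM scaling, and p-values were adjusted over all genes tested by Benjamini-Hochberg. The threshold was an adjusted p of 0.1 throughout, joined for F0, F1 and interaction effects with a normalized mean above 50, and for organs with a log2 difference beyond 1 in size. All tests are two-sided, SE is the standard error of the log2 fold change, and every member passed both filters. The fits were tested on simulated data. Males are separate animals, but litters share a sire, and p-values measure the spread between males.

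The rule for named genes took the 25 top members with a symbol (all 15, of which 1 is not reported here), up to 4 per functional list, the genes at each threshold, the called members with the smallest p, those with the highest vehicle level or organ difference and those with the most and least spread. Members without a symbol that this rule took were mostly left unnamed. Symbols came from the study's supplement, where 1489 of 1568 identifiers had one. The alternatives were other scalings, thresholds, filters, transcript length offsets, DESeq2, necropsy date or litter as a block, single cohorts, single doses and leaving out dates, and, chosen after seeing the data, leaving out vehicle cohort C replicate 3 or high-dose cohort D replicate 3 and ratios relative to the median gene. Littermates in other dose groups had a median correlation of deviations of 0.137 over 68 pairs across the genes with the vehicle minimum and of 0.0051 across the members, and the liver and kidney of a male of 0.204 over 27 males, and pairing comes from the pedigree and from the animal.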

Additional observations from a re-analysis of the deposited data

Results flagged for a closer look

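In 192 sets of livers (the members' mean and 15 named genes, each in 12 groups), 8 had a library farther from the others than Dixon's 95% critical value, which is 4.17%. A rate of 1 in 20 holds for independent sets. These sets share livers and genes that varied together, so the share cannot be read against it. The members' mean over vehicle was 0.98 in vehicle cohort C replicate 3 (others -0.12 to 0.16) and 0.73 in low-dose cohort D replicate 5 (others 0.04 to 0.19). Odc1 was at 97.8 CPM in the same vehicle library of cohort C (others 48.2 to 62.5). Paox was low in high-dose cohort A replicate 7, at 32.8 CPM (others 59.7 to 67.7). Get1 was low in vehicle cohort D replicate 2, at 4.23 CPM (others 5.84 to 6.87). Pdcl3 was low in vehicle cohort A replicate 2, at 7.68 CPM (others 9.45 to 10.5), and in vehicle cohort D replicate 4, at 5.58 CPM (others 7.09 to 8.41). Vezt was low in low-dose cohort B replicate 4, at 7.58 CPM (others 9.17 to 10.4). The cause was not tested.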

How the results depend on the processing

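The list depended on scaling more than on the other alternatives run: 16 of 200 members met the thresholds with TMM-scaled CPM, 18 with DESeq2 size factors and 47 with ratios relative to the median gene. A low-dose band of 0.2 kept 92, cohorts A, C and D alone kept 85, 98 and 68, leaving out the second necropsy date kept 65, and leaving out vehicle cohort C replicate 3 kept 117. These counts leave aside the limit of 200 genes. All 200 members met a low-dose band of 0.5 and a vehicle minimum of 2, but 77 and 151 of them stayed among the top 200 there.

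The count of members with an F0 effect lay between 11 and 21 in 12 alternatives over all doses, where 3.16% to 9.65% of all genes were called. It was lowest without the first necropsy date (11 lower, against 2.25% of all genes, and 0 higher, against 2.6%). It was highest without vehicle cohort C replicate 3 (20 lower, against 4.63% of all genes, and 1 higher, against 5.02%). In single doses, where fewer samples enter, it was 3 in vehicle males (1 higher, against 0.588% of all genes, and 2 lower, against 0.428%), 0 in low-dose males (0.195% of all genes) and 0 in high-dose males (0% of all genes). The F1 effect called 1 member with DESeq2 (0.0947% of all genes), 2 without the second date (0.603%) and 1 without high-dose cohort D replicate 3 (0.0737%). The F1 by high dose interaction called 2 with DESeq2 (0.484% of all genes). With the replicate block, the litter called 0 members for both interactions (0% of all genes), and the animal called 20 higher and 33 lower in kidney in place of 18 and 37 (27.7% and 19% of all genes). F0 and F1 effects were not fitted with the litter as a block, and the necropsy date as a block called 14 members for F0, all lower (3.43% of all genes), and 0 for F1 (0.0947%). Depth limits single genes little here, as each member had a mean normalized count over 50.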
